A study of Homo sapiens with 8 samples.

Results

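In HepG2 cells, 7 genes stood at 29.9 to 281 FPKM after genistein, against 0 FPKM in DMSO (vehicle) 1 and 2 and 0 to 17.8 FPKM in DMSO 3. They are CSTA, OSCAR, PAEP, METRNL, S100A14, PHLDA2 and UPP1, 7 of the 20897 genes in the files. They were chosen by their measured FPKM (fragments mapped, scaled to transcript length and to the size of the library). The choice called for values at or near 0 in DMSO and far higher in all 3 genistein libraries. Of the 7, S100A14, PHLDA2 and UPP1 were above 0 in DMSO 3, at 5.08, 14 and 17.8 FPKM. The difference between genistein and DMSO therefore chose them, and it is given below as a description, without a test. All 7 were matched by symbol to an Ensembl gene in the files, each with an OK status in all 8 libraries.

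PolyA RNA of HepG2, a human liver cancer line, was sequenced after 18 h with genistein (n = 3), with BMP6 at 50 ng/ml (n = 2) or with vehicle alone (n = 3). Genistein, an isoflavone of soy, inhibits tyrosine kinases and binds oestrogen receptors, and BMP6 is a bone morphogenetic protein that induces hepcidin in hepatocytes. Every well held 1% DMSO and medium with 1% serum. For genistein the labels conflict, with 10 micromolar in the design text and the same figure in millimolar in the protocol, so the dose is uncertain. Replicates are called biological in the design text, and all come from a single line.

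FPKM totals ranged from 1704599 to 3105197 per library, and read depth is unknown. An exact 0 in these files can be a failed estimate, so a gene is described as listed at 0. The share of the 12661 tested genes listed at 0 differed between libraries, at 17.1% in genistein 2, 13.3% in DMSO 1 and between 2.81% and 7.60% in the others. Among the tested genes above 0, the 5th percentile was 1.55 FPKM in BMP6 1 and 4.87 FPKM in genistein 2, the extremes of the 8 libraries. All 10 hepatocyte markers, ALB and APOA2 among them, were above 0 in every library. Of these, TAT was higher (1.62 ± 0.37 in log2, SE; limma adjusted p = 0.0296) and TTR lower (-2.64 ± 0.52; limma adjusted p = 0.0193) after genistein than in DMSO, and both calls were lost without DMSO 2 or 3 or any genistein library. Over all genes tested, 6.11% were higher and 5.96% lower at a limma adjusted p under 0.05. In bulk RNA, a change in RNA per cell and a change in the number of cells that make it cannot be told apart.

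The 7 genes do not form a family and sit on different chromosomes. PAEP encodes glycodelin, a secreted lipocalin best known from the secretory endometrium, and METRNL encodes meteorin-like, a secreted factor. OSCAR is an immunoglobulin-like receptor of osteoclasts and myeloid cells that binds collagen and signals through the adaptor FCER1G. CSTA encodes cystatin A, a cytosolic inhibitor of cysteine cathepsins that is abundant in epidermis and built into the cornified envelope. S100A14 is a calcium-binding EF-hand protein of epithelia, and PHLDA2 is a small pleckstrin homology protein of an imprinted cluster, known for its role in placental growth. UPP1 encodes uridine phosphorylase, which splits uridine into uracil and ribose phosphate.

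The sequences just upstream of the transcription start are shown because the 7 genes were all higher after genistein, and they let the promoters be read side by side. RefSeq promoter windows (GRCh38.p14) matched 4 of the 7 genes, PAEP, METRNL, S100A14 and UPP1. Each line holds the 250 bases before a start, 5′ to 3′ on the gene's strand. Bases just after the start were found in a GENCODE transcript of the gene for PAEP and UPP1, but not for METRNL or S100A14. Capitals mark matches, on either strand, to any of 10 searched motifs. UPP1 has 3 windows. One of them begins 11 bases downstream of the first line shown, overlaps it and is not printed.
PAEP (chr9:135561506-135561755, plus strand): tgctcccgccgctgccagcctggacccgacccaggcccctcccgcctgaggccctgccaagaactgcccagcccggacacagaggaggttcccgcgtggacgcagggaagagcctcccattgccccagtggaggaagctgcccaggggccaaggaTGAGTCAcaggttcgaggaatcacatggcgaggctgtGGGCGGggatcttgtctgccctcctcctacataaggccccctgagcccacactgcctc
METRNL (chr17:83080896-83081145, plus strand): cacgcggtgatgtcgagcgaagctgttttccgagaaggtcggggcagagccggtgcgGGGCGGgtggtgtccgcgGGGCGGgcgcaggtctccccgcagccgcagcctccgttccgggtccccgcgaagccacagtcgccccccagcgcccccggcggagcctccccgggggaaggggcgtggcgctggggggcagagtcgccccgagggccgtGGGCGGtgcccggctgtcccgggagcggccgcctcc
S100A14 (chr1:153616326-153616575, minus strand): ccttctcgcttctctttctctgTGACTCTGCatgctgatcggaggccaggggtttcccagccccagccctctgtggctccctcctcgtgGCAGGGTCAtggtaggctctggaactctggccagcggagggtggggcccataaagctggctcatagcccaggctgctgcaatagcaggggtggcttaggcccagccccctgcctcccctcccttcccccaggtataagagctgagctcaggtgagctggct
UPP1 (chr7:48089004-48089253, plus strand): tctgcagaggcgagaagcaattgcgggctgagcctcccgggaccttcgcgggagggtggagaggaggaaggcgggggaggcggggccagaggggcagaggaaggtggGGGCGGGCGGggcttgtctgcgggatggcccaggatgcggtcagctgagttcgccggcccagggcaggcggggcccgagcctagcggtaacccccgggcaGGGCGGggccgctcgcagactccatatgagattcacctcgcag
UPP1 (chr7:48088454-48088703, plus strand): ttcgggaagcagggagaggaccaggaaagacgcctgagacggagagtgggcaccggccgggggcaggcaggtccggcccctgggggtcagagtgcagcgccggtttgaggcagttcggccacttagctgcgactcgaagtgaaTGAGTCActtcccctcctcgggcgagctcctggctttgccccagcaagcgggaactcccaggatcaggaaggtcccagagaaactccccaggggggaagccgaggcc

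The second UPP1 line and the PAEP line hold the AP-1 element TGANTCA, found as TGAGTCA in both. It lay 107 to 101 bases before that UPP1 start and 95 to 89 bases before the PAEP start, and 6.57% of all 35116 windows hold it. The GC box GGGCGG was found in METRNL (3 matches), in the first UPP1 window (3 matches, the first 2 of them overlapping) and in PAEP (1 match), against 42.6% of all windows. The antioxidant response element core TGACNNNGC had 2 matches in S100A14, and 10.9% of all windows hold it. None of the 6 windows held the TATA box TATAAA (10.7% of all windows), the CCAAT box CCAAT (32.0%), the SMAD element GGCGCC (16.4%), the E-box CACGTG (6.34%), the amino acid response element TGATGNAA (3.14%), the cAMP response element TGACGTCA (1.65%) or the palindromic oestrogen response element (0.0399%). GC content was 78.4% in METRNL, 71.6% and 66.0% in the UPP1 lines, 67.2% in PAEP and 63.2% in S100A14, against a median of 58.0% over all windows. METRNL had 34 CpG dinucleotides and S100A14 had 4, against a median of 11. A match is only a run of letters and says nothing on its own about binding.

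CSTA (ENSG00000121552; hg18, chromosome 3, 123526701 to 123543501) had 173, 134 and 98.7 FPKM in genistein 1, 2 and 3, and 0 FPKM in BMP6 1 and 2 and in all 3 DMSO libraries. Every genistein library was above every other library, and the mean was 135 ± 37.3 FPKM (SD, n = 3). The authors' deposited interval ran from 78.8 to 119 FPKM in the lowest of them, genistein 3. Among 110 genes listed at 0 in all DMSO libraries and above 0 in all genistein libraries, CSTA had the highest minimum after genistein.

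PAEP (ENSG00000122133; hg18, chromosome 9, 137593425 to 137598622) had 71.2, 38.1 and 39.5 FPKM in genistein 1, 2 and 3, and was listed at 0 in the 2 BMP6 and the 3 DMSO libraries. Genistein 1 was the high library, the other two lay close together, and the genistein mean was 49.6 ± 18.7 FPKM (SD, n = 3). Its lowest genistein value was the 3rd highest of those 110 genes.

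OSCAR (ENSG00000170909; hg18, chromosome 19, 59289745 to 59297812) had 65.0, 73.9 and 29.9 FPKM in genistein 1, 2 and 3, and was listed at 0 in the BMP6 and DMSO libraries. Its genistein mean was 56.3 ± 23.3 FPKM (SD, n = 3). The whole span of OSCAR, 8068 bp, lies inside the span the files give for NDUFA3 (59282233 to 59303652), a subunit gene of respiratory complex I. NDUFA3 had 475, 526 and 226 FPKM in genistein 1, 2 and 3, 212 and 1068 FPKM in BMP6 1 and 2, and 1150, 890 and 874 FPKM in DMSO 1, 2 and 3. Within the genistein libraries both genes were highest in genistein 2 and lowest in genistein 3. Outside genistein, OSCAR was listed at 0 both in DMSO 1, where NDUFA3 was highest, and in BMP6 1, where NDUFA3 was lowest. What part reads of NDUFA3 have in the OSCAR values was not tested. No source used here gives the strand setting of the counting, so reads of overlapping exons cannot be told apart.

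METRNL (ENSG00000176845; hg18, chromosome 17, 78630856 to 78646005) had 147, 103 and 59.7 FPKM in genistein 1, 2 and 3, 0.153 and 11 FPKM in BMP6 1 and 2, and was listed at 0 in all DMSO libraries. Its genistein mean of 103 ± 43.7 FPKM (SD, n = 3) was 18.5 times its BMP6 mean of 5.58 FPKM. The BMP6 1 value is far below the 5th percentile of that library, and the authors' interval around it runs from 0 to 0.934 FPKM.

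S100A14 (ENSG00000189334; hg18, chromosome 1, 151853355 to 151856086) had 97.5, 88.9 and 51.8 FPKM in genistein 1, 2 and 3, 8.85 and 23.5 FPKM in BMP6 1 and 2, and 0, 0 and 5.08 FPKM in DMSO 1, 2 and 3. The 3 groups did not overlap, with genistein highest, BMP6 between and DMSO lowest. The genistein mean of 79.4 ± 24.3 FPKM (SD, n = 3) was 4.91 times the BMP6 mean.

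PHLDA2 (ENSG00000181649; hg18, chromosome 11, 2906079 to 2907226) had 232, 281 and 75.4 FPKM in genistein 1, 2 and 3, 2.12 and 52.3 FPKM in BMP6 1 and 2, and 0, 0 and 14 FPKM in DMSO 1, 2 and 3. It had the highest genistein mean of the 7 genes, 196 ± 107 FPKM (SD, n = 3), and the widest spread, with genistein 2 at 3.73 times genistein 3. BMP6 1 lay below DMSO 3, so those groups overlapped.

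UPP1 (ENSG00000183696; hg18, chromosome 7, 48094766 to 48114855) had 172, 86.3 and 86.1 FPKM in genistein 1, 2 and 3, 3.79 and 21.9 FPKM in BMP6 1 and 2, and 0, 0 and 17.8 FPKM in DMSO 1, 2 and 3. Its genistein mean was 115 ± 49.7 FPKM (SD, n = 3). BMP6 and DMSO overlapped here as well, and DMSO 3 was the highest DMSO value of any of the 7 genes.

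**Figure D1:**
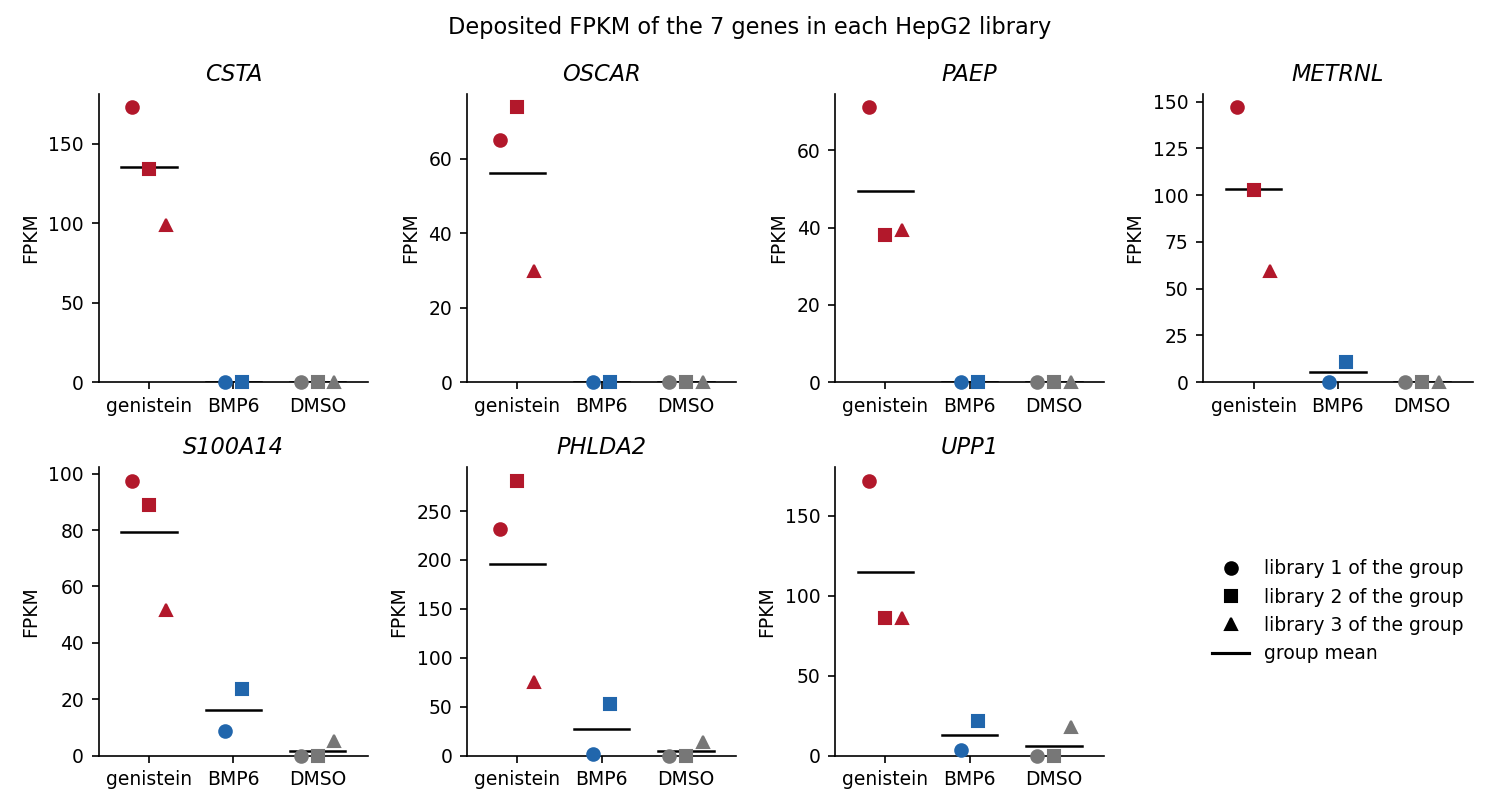
FPKM of each of the 7 genes (vertical axis, linear and starting at 0, scaled separately per gene) in the genistein, BMP6 and DMSO libraries; each point is 1 library and the bar is the group mean. CSTA, OSCAR and PAEP are listed at 0 outside genistein, METRNL is above 0 in BMP6 2 (11 FPKM), and S100A14, PHLDA2 and UPP1 are above 0 in both BMP6 libraries and in DMSO 3.

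Genistein 3 was the lowest of the 3 for 6 of the 7 genes, with genistein 2 and 3 nearly equal for UPP1, and PAEP was the exception. Genistein 1 was the highest for 5 genes, and genistein 2 for OSCAR and PHLDA2. After median-of-ratios scaling genistein 3 was lowest for 5 genes and genistein 1 highest for 4, with UPP1 lowest and S100A14 highest in genistein 2. The total FPKM was lowest in genistein 3 (1860427) and highest in genistein 1 (2846743) of these libraries. After that scaling, the highest genistein value of CSTA was 1.36 times the lowest, against 1.76 times as deposited. For PHLDA2 that ratio was 3.56 after scaling, against 3.73 as deposited.

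The order of the mean levels after genistein was PHLDA2, CSTA, UPP1, METRNL, S100A14, OSCAR and PAEP, on the FPKM scale, which is per transcript length. Neighbours in that order did not separate: the library range of PHLDA2 (75.4 to 281 FPKM) covered those of CSTA and UPP1, and the range of OSCAR (29.9 to 73.9 FPKM) covered that of PAEP. The genistein mean of PHLDA2 was above 81.7%, and that of PAEP above 46.3%, of the genes above 0 in all genistein libraries. The 7 genes therefore ranged from near the middle to the upper part of the genes detected after genistein.

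On the log2(FPKM + 1) scale, the differences between genistein and DMSO were 7.05 for CSTA, 6.61 for METRNL, 6.12 for PHLDA2, 5.74 for OSCAR, 5.60 for PAEP, 5.41 for S100A14 and 5.37 for UPP1. Adding 1 FPKM sets the size of these differences: with 0.1 FPKM added, the difference was 10.37 for CSTA and 7.59 for UPP1. In all 7 genes the genistein libraries lay above the DMSO libraries, as they did in 23.3% of all genes tested, and the rule fixed that count. At a limma adjusted p under 0.05, 12.1% of all genes tested differed between genistein and DMSO, with 6.11% higher and 5.96% lower (773 and 754 genes). After median-of-ratios scaling the counts were 927 higher and 1312 lower.

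The rule set no numeric limit. The outermost values among the 7 genes were 17.8 FPKM in DMSO (UPP1) and 29.9 FPKM after genistein (OSCAR), and 121 genes, these 7 included, stay within both values. Of 8209 genes listed at 0 in all DMSO libraries, 110 were above 0 in all genistein libraries, with a median lowest value of 3.12 FPKM. By lowest genistein value CSTA ranked 1, METRNL 2, PAEP 3 and OSCAR 5 among them. IGFBP3, whose protein binds insulin-like growth factors, ranked between PAEP and OSCAR with 64.2, 39.0 and 34.0 FPKM in genistein 1, 2 and 3. The next were the cytokine gene IL11 (45.5, 35.0 and 23.0 FPKM in genistein 1, 2 and 3) and the hepcidin gene HAMP (22.2, 34.4 and 22.8 FPKM). HAMP stood at 2563 and 6425 FPKM in BMP6 1 and 2, whereas IGFBP3 and IL11 were listed at 0 there, as CSTA, OSCAR and PAEP were. Among genes at no more than 1 FPKM in each DMSO library, the next were BIRC7, GMFG, SLC22A15, DUSP13, CD22, NKD2 and ERCC6L2-AS1, with lowest genistein values from 9.75 to 17.2 FPKM.

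**Figure D2:**
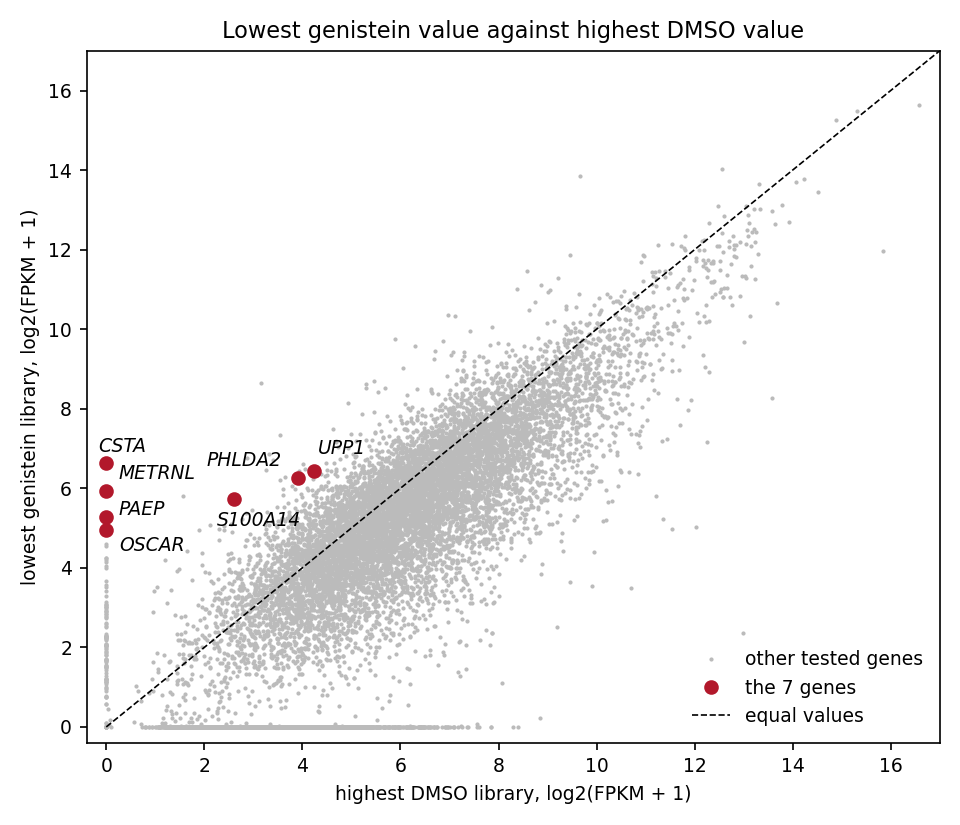
Each point is 1 of the 12661 tested genes, with the highest DMSO library on the horizontal axis and the lowest genistein library on the vertical axis, both as log2(FPKM + 1); the dashed line marks equal values. CSTA, METRNL, PAEP and OSCAR lie at 0 on the DMSO axis, above all other genes there except that IGFBP3 (34.0 FPKM) lies between PAEP and OSCAR, and S100A14, PHLDA2 and UPP1 lie to their right because of DMSO 3 (5.08, 14 and 17.8 FPKM).

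The BMP6 libraries were not used to pick the genes. In them the 7 genes fell into 2 sets: METRNL, S100A14, PHLDA2 and UPP1 were above 0 in both libraries, and CSTA, OSCAR and PAEP were listed at 0 in both. In BMP6 1 the authors' interval began at 0 for METRNL (0.153 FPKM), PHLDA2 (2.12 FPKM) and UPP1 (3.79 FPKM). That of S100A14 ran from 2.89 to 14.8 FPKM. In each of the 4 genes BMP6 2 was higher than BMP6 1, and the summed FPKM of the 7 genes was 14.9 in BMP6 1 and 109 in BMP6 2. The share of tested genes at 0 was 6.33% and 7.60% in BMP6 1 and 2, and their FPKM totals were the lowest and the highest of the series. The summed FPKM was 958, 806 and 441 in genistein 1, 2 and 3, against 0, 0 and 36.9 in DMSO 1, 2 and 3.

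All genistein libraries were above both BMP6 libraries in each of the 7 genes, as in 16.3% of all genes tested, and the genistein side had been chosen to be high. Both BMP6 libraries were above all DMSO libraries in METRNL and S100A14, 2 of 7, against 16.1% of all genes tested. METRNL counts here through 0.153 FPKM in BMP6 1, against DMSO values listed at 0. The 7 genes were chosen for low DMSO values, so the 16.1% is no like background for them. Of the 4 genes listed at 0 in all DMSO libraries, METRNL alone was above 0 in both BMP6 libraries. That was the case for 40.1% of the 312 tested genes listed at 0 in DMSO. The filter on low values helped to set that share, since such genes are tested only through their genistein and BMP6 values. It is therefore no background for METRNL.

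CSTA, OSCAR and PAEP were listed at 0 in both the BMP6 and the DMSO libraries, so a difference between those groups could not be called. Of the 4 other genes, none passed the threshold for BMP6 against DMSO in the limma fit over all genes, in which 0.837% of genes passed (0.340% higher and 0.498% lower). At an unadjusted p under 0.05 the count was 1, S100A14. Its log2 difference was 3.09 ± 0.85 (SE; limma adjusted p = 0.131). PHLDA2 had 2.39 ± 1.49, UPP1 1.98 ± 1.29 and METRNL 1.90 ± 0.90, with limma adjusted p of 0.406, 0.426 and 0.299. The DMSO libraries on the other side of this comparison helped to pick the genes, and METRNL passed the filter only through genistein. The differences depended on the library: METRNL was at 0.20 without BMP6 2 and 3.59 without BMP6 1, and PHLDA2 at 0.34 and 4.43.

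The 3 genes above 0 in DMSO were so in DMSO 3 only. DMSO 3 had the fewest tested genes at 0 (356), against 669 in DMSO 2 and 1679 in DMSO 1. Over all tested genes, 302 were above 0 in DMSO 3 only among the DMSO libraries. Without DMSO 3 the log2 difference between genistein and DMSO was 6.28 for S100A14, 7.42 for PHLDA2 and 6.78 for UPP1, each above the value with all libraries. What part the number of genes at 0 has in these values was not tested. Genistein 2 had the most genes at 0 (2167), and all 7 genes were above 0 in it.

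Close relatives of the 7 genes were listed by family. Of these 11 genes, 8 passed the filter on low values, and 2 rose after genistein, S100A16 and PHLDA1, with none lower, against 6.11% higher and 5.96% lower of all genes tested. UPP2, the other uridine phosphorylase gene, and LAIR1 and VSTM1, receptor genes of the same chromosomal region as OSCAR, were listed at 0 in all 8 libraries. The median log2 difference of the 8 was -0.09, against 0.05 over all genes tested. The 8 include LCN15, which was listed at 0 in all genistein and DMSO libraries. Its difference was thus fixed at 0, it could not be called, and it helped to set that median.

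S100A16, another calcium-binding S100 gene, had 476, 415 and 333 FPKM in genistein 1, 2 and 3, against 59.8, 101 and 139 FPKM in DMSO 1, 2 and 3. The groups did not overlap, and the log2 difference was 2.08 ± 0.49 (SE; limma adjusted p = 0.0328). In hg18 S100A16 lies next to S100A14, with a gap of 1172 bp between the spans. S100A13 flanks S100A14 on the other side at 1813 bp. It had 926, 376 and 411 FPKM in genistein 1, 2 and 3, against 1516, 332 and 416 FPKM in DMSO 1, 2 and 3, and did not pass (limma adjusted p = 0.895).

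PHLDA1, a relative of PHLDA2 with the same pleckstrin homology-like fold, had 470, 1282 and 335 FPKM in genistein 1, 2 and 3, against 52.8, 86.7 and 99.2 FPKM in DMSO 1, 2 and 3. Its log2 difference was 2.92 ± 0.66 (SE; limma adjusted p = 0.0287). As in PHLDA2, genistein 2 was highest and genistein 3 lowest. PHLDA3 had 62.4, 66.9 and 32.2 FPKM in genistein 1, 2 and 3, against 65.8, 74.5 and 127 FPKM in DMSO 1, 2 and 3, and did not pass (limma adjusted p = 0.511).

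CSTB, the gene of cystatin B and the nearest relative of CSTA, was well above 0 in every library, at 445, 878 and 166 FPKM in genistein 1, 2 and 3, against 574, 767 and 654 FPKM in DMSO 1, 2 and 3 (limma adjusted p = 0.600). METRN, the gene of meteorin, had 62.6, 35.8 and 16.9 FPKM in genistein 1, 2 and 3, against 0, 105 and 133 FPKM in DMSO 1, 2 and 3. Its DMSO 1 value is listed at 0 and the groups overlapped (limma adjusted p = 0.879). The lipocalin gene LCN15 was listed at 0 in all genistein and DMSO libraries and stood at 314 and 2286 FPKM in BMP6 1 and 2, through which alone it passed the filter. LCN2 had 22.8, 0 and 12.4 FPKM in genistein 1, 2 and 3, against 20.9, 24.2 and 23.1 FPKM in DMSO 1, 2 and 3 (limma adjusted p = 0.393).

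The calls of S100A16 and PHLDA1 were each lost without any of the DMSO or genistein libraries, at limma adjusted p of at most 0.103 and 0.0932.

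**Figure D3:**
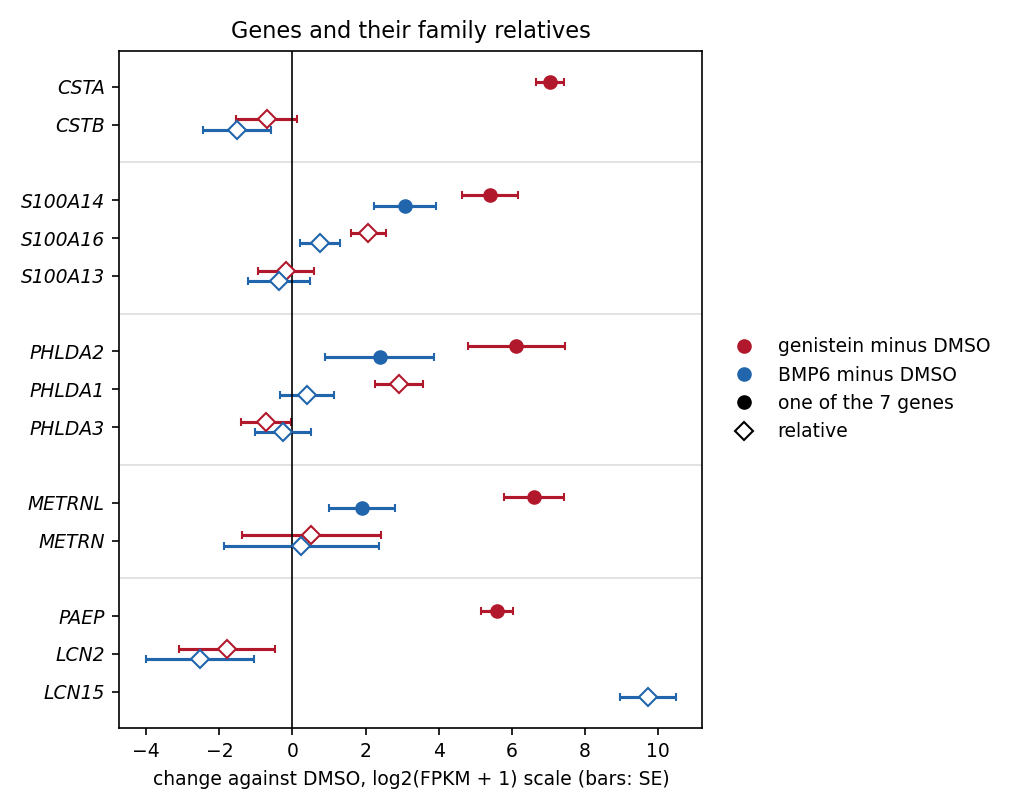
Difference from DMSO on the log2(FPKM + 1) scale (horizontal axis; bars are the SE of the limma fit) for CSTA, S100A14, PHLDA2, METRNL and PAEP (filled circles) and their relatives (open diamonds), after genistein (red) and BMP6 (blue); points are left out where both groups are listed at 0. S100A16 (2.08) and PHLDA1 (2.92) are the relatives that passed after genistein. LCN15 (9.73 after BMP6) passed the filter on low values through the BMP6 libraries alone.

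Of 45 genes within 100 kb of the 7 genes in hg18, 16 were listed at 0 in all 8 libraries and 29 were tested. After genistein 2 of the 29 were higher and none lower, a share close to the 6.11% over all genes, and their median log2 difference was 0.11, against 0.05 over all genes. They were S100A16, above, and CARS1, the gene of cytosolic cysteinyl-tRNA synthetase, 71502 bp from PHLDA2. CARS1 had 190, 120 and 116 FPKM in genistein 1, 2 and 3, against 39.4, 57.2 and 68.6 FPKM in DMSO 1, 2 and 3, with a log2 difference of 1.35 ± 0.36 (SE; limma adjusted p = 0.0469). The call of CARS1 was lost without any DMSO or genistein library, at limma adjusted p of at most 0.153.

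SLC22A18, the gene next to PHLDA2 in the same imprinted cluster, had 113, 79.4 and 46.7 FPKM in genistein 1, 2 and 3, against 97.9, 144 and 123 FPKM in DMSO 1, 2 and 3 (limma adjusted p = 0.527). Its neighbours CDKN1C and KCNQ1 were listed at 0 in all 8 libraries. Around PAEP the lipocalin genes LCN1, LCN9 and OBP2A were listed at 0 in all libraries, and around UPP1 none of the 3 neighbours was above 0 in any library. The 4 tested neighbours of CSTA, 8 of OSCAR, 3 of PAEP and 1 of METRNL held no call.

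**Figure D4:**
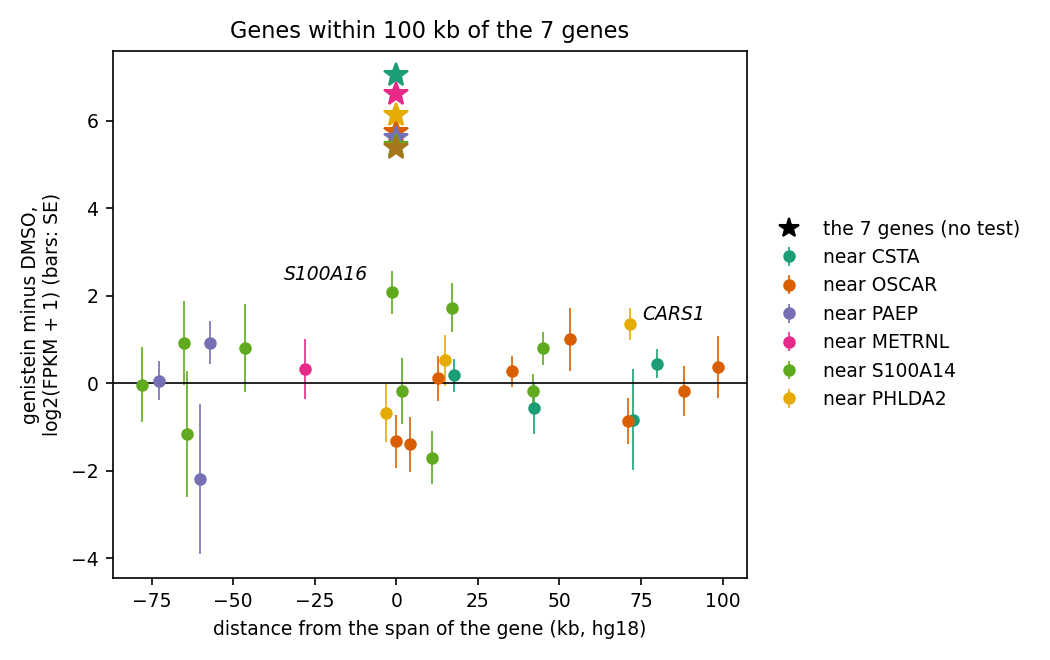
Genes within 100 kb of the 7 genes that passed the filter (circles, coloured by the gene they lie near), with their distance from its span in kb on the horizontal axis and the genistein minus DMSO difference on the log2(FPKM + 1) scale on the vertical axis (bars are the SE); stars mark the 7 genes. The neighbours lie on both sides of 0, with S100A16 (2.08) and CARS1 (1.35) the ones that passed.

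Genes that work with the 7 genes, or belong to the same groups, gave these counts after genistein. Of 6 tested cysteine cathepsins, the proteases that cystatin A inhibits, 2 rose and none fell, against 6.11% higher and 5.96% lower of all genes, with a median log2 difference of 0.37, against 0.05 over all genes. CTSB had 2428, 1496 and 1970 FPKM in genistein 1, 2 and 3, against 481, 768 and 739 FPKM in DMSO 1, 2 and 3 (log2 difference 1.57 ± 0.36, SE; limma adjusted p = 0.0300). CTSL had 720, 488 and 465 FPKM in genistein 1, 2 and 3, against 131, 192 and 218 FPKM in DMSO 1, 2 and 3 (1.63 ± 0.39; limma adjusted p = 0.0342). Both lost the call without any DMSO or genistein library. No call was made among 5 tested cystatins, with 1 lower at an unadjusted p under 0.05 in the limma fit.

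Of 10 tested S100 genes other than S100A14, 2 passed as higher, S100A16 and S100P, and none as lower. Over all genes 6.11% were higher and 5.96% lower. At an unadjusted p under 0.05 in the limma fit, 2 of the 10 were higher and 2 lower. S100A10 had 356, 426 and 178 FPKM in genistein 1, 2 and 3, against 1608, 911 and 796 FPKM in DMSO 1, 2 and 3 (limma adjusted p = 0.0544). S100A1 had 1180, 493 and 722 FPKM, against 2978, 2747 and 1773 FPKM (limma adjusted p = 0.107). S100P had 6355, 2826 and 3278 FPKM in genistein 1, 2 and 3 and 2751 and 7025 FPKM in BMP6 1 and 2, against 123, 166 and 384 FPKM in DMSO 1, 2 and 3. It passed against DMSO after both treatments (limma adjusted p = 0.00692 after genistein and 0.0297 after BMP6). The genistein call of S100P held without each library in turn, and the BMP6 call was lost without DMSO 1, 2 or 3, genistein 1 or 3, or BMP6 1.

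Only 2 of the 16 genes in the files from the leukocyte receptor complex and the OSCAR signalling chain were tested, LAIR2 and FCER1G. LAIR2, which encodes a secreted collagen receptor, had 18.6, 21.6 and 9.61 FPKM in genistein 1, 2 and 3 and was listed at 0 in the BMP6 and DMSO libraries, as OSCAR was. It passed the filter on low values through genistein alone and is given as a description, with no test. FCER1G, the adaptor of OSCAR, had 0, 63.1 and 0 FPKM in genistein 1, 2 and 3, against 28.7, 40.6 and 21.2 FPKM in DMSO 1, 2 and 3 (limma adjusted p = 0.307). SYK and TYROBP did not pass the filter.

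The next counts stand against 6.11% higher and 5.96% lower over all genes tested. Of 7 tested lipocalins 1 fell, LCN12, with 2.16, 0 and 1.76 FPKM in genistein 1, 2 and 3, against 166, 42.0 and 20.2 FPKM in DMSO 1, 2 and 3 (limma adjusted p = 0.0126). That call was lost without DMSO 2 (0.0582). None of the 20 tested genes of pyrimidine salvage, breakdown and synthesis, the pathways around UPP1, passed in the limma fit, with 2 higher and 2 lower at an unadjusted p under 0.05. Of 8 tested cornified envelope and epidermal differentiation genes 1 rose, PPL, the gene of periplakin, with 48.9, 34.9 and 46.7 FPKM in genistein 1, 2 and 3, against 20.9, 11.7 and 15.3 FPKM in DMSO 1, 2 and 3 (limma adjusted p = 0.0435, lost without DMSO 2 or 3 or any genistein library). At an unadjusted p under 0.05 in the limma fit, 4 of these 8 genes were higher and 2 lower. EVPL, from the same list, went the other way from PPL, at 15.3 to 24.9 FPKM after genistein, against 80.1 to 125 FPKM in DMSO. Its log2 difference was -2.25 ± 0.62 (SE), and it did not pass (limma adjusted p = 0.0507). A further 20 of the 28 genes of that list in the files were at 0 in all 8 libraries. Of 6 tested genes of the PHLDA family and its imprinted cluster 1 rose, PHLDA1.

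Many markers of the cell types in which some of the 7 genes are best known were listed at 0. Of 10 keratinocyte markers 9, KRT5, KRT14 and TP63 among them, were listed at 0 in all 8 libraries, and the tenth, KRT10, was at 16.4 to 103 FPKM after genistein, 9.93 to 127 FPKM after BMP6 and 56.8 to 181 FPKM in DMSO. Of 10 myeloid markers 5, PTPRC, CSF1R, ITGAM, TYROBP and SPI1, were listed at 0 in all libraries. The summed FPKM of the myeloid list, most of it LYZ, was 1242 to 1955 after genistein, 1562 to 2437 after BMP6 and 3314 to 4905 in DMSO. In that list LYZ, the lysozyme gene, fell (-1.58 ± 0.42, SE; limma adjusted p = 0.0448, lost without any DMSO or genistein library). CD68, a lysosomal membrane protein gene, rose, with 84.3, 86.7 and 68.8 FPKM in genistein 1, 2 and 3, against 40.6, 31.4 and 32.4 FPKM in DMSO 1, 2 and 3 (limma adjusted p = 0.0406, lost without DMSO 2 or 3 or any genistein library). CD14, an endotoxin co-receptor gene, had 32.0, 74.4 and 23.9 FPKM in genistein 1, 2 and 3, against 0, 0 and 19.3 FPKM in DMSO 1, 2 and 3, and did not pass (limma adjusted p = 0.0604). AIF1 went the other way and did not pass (limma adjusted p = 0.119). It had 0, 22.9 and 24.8 FPKM in DMSO 1, 2 and 3 and was listed at 0 after genistein. FCER1G, also in that list, had a log2 difference of -2.91 ± 1.79 (SE). Of the 5 tested myeloid genes 1 was called higher and 1 lower, against 6.11% and 5.96% of all genes tested. Their median log2 difference was -1.58, against 0.05 over all genes. The part of myeloid cells in the OSCAR values was not tested. Of 9 secretory endometrium markers 5 were listed at 0 in all libraries, PGR and ESR1 among them. Of the 4 tested, 1 was called higher and 1 lower after genistein, against 6.11% and 5.96% of all genes tested. In that list LIF, a cytokine gene, rose to 38.7, 42.2 and 32.9 FPKM in genistein 1, 2 and 3, against 0, 2.42 and 3.34 FPKM in DMSO 1, 2 and 3 (limma adjusted p = 0.00959), and DPP4 fell (-1.97 ± 0.32; limma adjusted p = 0.0105, lost without DMSO 2 or genistein 3). The summed level of that list was 406 to 548 FPKM after genistein, 1914 to 3784 FPKM after BMP6 and 332 to 604 FPKM in DMSO. Most of it after BMP6 was SPP1 (2553 and 1528 FPKM in BMP6 1 and 2) and GPX3 (1088 and 203 FPKM). SPP1 passed for BMP6 against DMSO (3.69 ± 0.47, SE; limma adjusted p = 0.0209), a call lost without DMSO 2 or 3, genistein 3 or BMP6 1. GPX3 did not pass (limma adjusted p = 0.241).

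The genes whose log2(FPKM + 1) over the 8 libraries was most like the mean standardized profile of the 7 genes were TACC2 (Pearson r = 0.992), EZH1 (0.990), CENPN (0.990), SQSTM1 (0.989) and NAPB (0.989). These correlations are a description, since the libraries fall into 3 groups that the 7 genes were chosen to separate. SQSTM1, the gene of the autophagy receptor p62, had 2862, 2062 and 2196 FPKM in genistein 1, 2 and 3, 269 and 407 FPKM in BMP6 1 and 2, and 145, 225 and 333 FPKM in DMSO 1, 2 and 3. TACC2, a centrosomal coiled-coil gene, had 168, 172 and 144 FPKM in genistein 1, 2 and 3, 25.8 and 38.7 FPKM in BMP6 1 and 2, and 20.8, 16.2 and 24.6 FPKM in DMSO 1, 2 and 3. Unlike the 7 genes, both were above 0 in every library.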

How the data were processed

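Each deposited file lists an FPKM per Ensembl gene for 1 library, with bounds and a status flag, per the file headers. The submitters' processing notes name TopHat 1.1.0, Bowtie, Cufflinks 1.0.3, Cuffdiff and hg18 without settings, and how the authors scaled FPKM is not stated. Low FPKM did not step with the length of the longest GENCODE transcript (Spearman rho from -0.0940 to 0.0898 over the 1000 lowest values of each library), so whole reads could not be recovered, no count model was run and depth is unknown.

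Symbols came from a table of gene names. The 12661 genes that reached 1 FPKM in 2 or more libraries were tested, and all 7 genes were among them, 4 only through genistein libraries. One limma model (3.58.1, under R 4.3.3) with an intensity trend was fitted to log2(FPKM + 1) of all 8 libraries, two-sided, with 5 residual and 3.22 prior degrees of freedom. Benjamini-Hochberg adjustment covered every tested gene, with 0.05 as threshold, and the model was tested on simulated data. The log2(FPKM + 1) scale understates the change of low genes. Coordinates are hg18 as in the files, with starts counted from 1. Tables were handled with Python 3.11.15.

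The 7 genes, their relatives and the lists were chosen with earlier results of these data known. Named genes are the 7, their relatives, neighbours that passed or flank them, hepatocyte markers by level and up to 4 called genes per list and direction, plus the 5 most alike and the 10 with low DMSO and the highest minimum after genistein. NDUFA3, FCER1G, SYK, TYROBP, KRT10, CD14, AIF1, GPX3, S100A1, S100A10, EVPL and the other genes given as listed at 0 were named after their values were seen. Alternatives were another pseudocount, no filter, median-of-ratios scaling, a replicate block, fits of 2 groups and leaving out each library.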

Additional observations from a re-analysis of the deposited data

How the results depend on the processing

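Fits without 1 library gave between 244 (DMSO 2) and 2615 (BMP6 2) genes past the threshold for genistein against DMSO, against 1527 with all libraries. They gave between 5 (without DMSO 2) and 1892 (without BMP6 2, where the lone BMP6 library is assumed to vary like the other groups) for BMP6 against DMSO, against 106. With only the 2 groups compared in the fit the counts were 2616 and 13, and with median-of-ratios scaling 2239 (927 higher, 1312 lower) and 382. Without DMSO 1 and genistein 2 together, a setting chosen after seeing the data, they were 421 and 161.

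Whether the replicate numbers pair the libraries is not known. Same-numbered libraries had correlations of their deviations from the group means between -0.247 and 0.286, not all above 0.1. Deviations cancel out within a group, so in groups this small these values cannot settle the question. With a replicate block, 414 and 4 genes passed for the 2 comparisons, 1 of 8 relatives and 0 of 29 neighbours (limma adjusted p = 0.0691 for S100A16 and 0.130 for CARS1). The 2 relatives that rose were 0 to 2 in fits without 1 library, and 0 without DMSO 1 and genistein 2 together. The 2 neighbours were 0 to 4 without 1 library, 4 with the 2 groups alone, and 0 without DMSO 1 and genistein 2 together. Where the limma count was 0, between 2 and 5 neighbours had an unadjusted p under 0.05, and 2 relatives did.

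For METRNL, S100A14, PHLDA2 and UPP1, no alternative run gave a call for BMP6 against DMSO. Of the genistein minus DMSO differences of the 7 genes, whose sign the choice of genes fixed, 13 of 98 values moved by more than the spread of the genistein libraries. Of these 13, 7 came from the pseudocount of 0.1 FPKM, and the others, for S100A14, PHLDA2 and UPP1, from leaving out DMSO libraries, once together with genistein 2. Median-of-ratios scaling moved the median difference of all genes from 0.048 to -0.054. The files give no depth, so how far a value listed at 0 lies below detection is unknown.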
